A study of Mus musculus with 30 samples.

Results

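The fragments described here are reads of 20 to 45 nt that matched, base for base and in sense, the mitochondrial mRNAs of complex I: mt-Nd1, mt-Nd2, mt-Nd3, mt-Nd4, mt-Nd4l, mt-Nd5 and mt-Nd6. Members were chosen by name, and a read counted when its whole sequence lay inside 1 of these 7 transcripts and inside no mitochondrial tRNA or rRNA. These 7 genes are among 88317 gene labels that had a matched read in the series. They held 1237499 reads of 62027 distinct sequences, of 1487695334 reads in all 30 libraries. The small RNA came from the cortex of mice aged 6 months, either wildtype (WT, the littermates without the transgenes) or 5xFAD (AD), a hemizygous model of Alzheimer's disease whose transgenes are driven by the neuronal Thy1 promoter, with mice of both sexes on a C57BL/6J background. Both genotypes were sequenced after the same 15 to 50 nt gel cut by 2 protocols, with 8 WT and 8 AD libraries by PANDORA-seq and 7 WT and 7 AD libraries by traditional-seq. In PANDORA-seq the RNA is treated with T4PNK, an enzyme that leaves a 5′ phosphate and a 3′ hydroxyl on RNA ends, as adapter ligation needs, and with AlkB, which removes methyl groups that stop reverse transcription. Traditional-seq omits both treatments. In such bulk tissue, fewer cells of a type and less RNA per cell cannot be told apart.

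Complex I (NADH:ubiquinone oxidoreductase) is the entry point of electrons from NADH into the respiratory chain and pumps protons across the inner mitochondrial membrane. Its core membrane subunits are the 7 ND proteins, encoded in mitochondrial DNA, while all other subunits and the assembly factors are encoded in the nucleus and imported. Mitochondrial DNA is transcribed from each strand as a long precursor from which tRNAs are cut out, and the mRNAs lie between them. Neurons depend heavily on this chain for their energy supply.

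The members lie on both strands of the mitochondrial chromosome. By the GENCODE M21 annotation of build GRCm38, 6 of them are on the plus strand: mt-Nd1 at chrM:2751-3707, mt-Nd2 at chrM:3914-4951, mt-Nd3 at chrM:9459-9806, mt-Nd4l at chrM:9877-10173, mt-Nd4 at chrM:10167-11544 and mt-Nd5 at chrM:11742-13565. Only mt-Nd6, at chrM:13552-14070, is on the minus strand. mt-Nd4l and mt-Nd4 share 7 nt of 1 bicistronic mRNA, and mt-Nd5 and mt-Nd6 overlap by 14 nt on opposite strands. All are single-exon protein-coding genes. A read that crosses from a member into its neighbour was not counted.

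Many of these fragments also occur in nuclear copies of mitochondrial DNA. The share of PANDORA-seq reads whose sequence was also in a nuclear GENCODE transcript was 0% for mt-Nd1, 5.60% for mt-Nd2, 89.5% for mt-Nd3, 69.1% for mt-Nd4, 99.9% for mt-Nd4l, 16.95% for mt-Nd5 and 3.39% for mt-Nd6. For mt-Nd3, mt-Nd4l and mt-Nd4 the leading fragments were found in Gm28438, Gm10222 and Gm28439, 3 neighbouring unprocessed pseudogenes at chr1:24611535-24613119, minus strand. The shared reads could not be assigned to mitochondrial or nuclear RNA by sequence, and copies outside annotated transcripts were not searched.

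The fragment with the highest mean level of each gene in PANDORA-seq is given here with the 5 transcript bases on either side in lower case and the fragment in capitals, because they show where the most frequent reads began and ended.
mt-Nd1 753 to 790 (chrM:3503-3540, plus strand): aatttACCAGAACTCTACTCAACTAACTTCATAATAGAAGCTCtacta
mt-Nd2 484 to 509 (chrM:4397-4422, plus strand): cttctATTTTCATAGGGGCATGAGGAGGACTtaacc
mt-Nd3 57 to 79 (chrM:9515-9537, plus strand): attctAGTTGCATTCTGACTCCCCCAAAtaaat
mt-Nd4 400 to 441 (chrM:10566-10607, plus strand): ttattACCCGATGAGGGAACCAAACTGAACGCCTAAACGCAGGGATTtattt
mt-Nd4l 1 to 40 (chrM:9877-9916, plus strand): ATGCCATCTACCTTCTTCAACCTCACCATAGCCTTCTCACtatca
mt-Nd5 450 to 490 (chrM:12191-12231, plus strand): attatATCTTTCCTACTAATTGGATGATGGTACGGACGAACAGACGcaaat
mt-Nd6 223 to 259 (chrM:13812-13848, minus strand): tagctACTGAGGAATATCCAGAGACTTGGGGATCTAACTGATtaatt
All 7 began with A, and the 6 that began inside the transcript followed a T. By mean RPM over the 16 libraries, none held more than 4.88% of its gene. On average each member was thus a population of many fragments rather than 1 product. Single libraries exceeded this share. The leaders of mt-Nd2 and mt-Nd4 reached 32.3 and 47.1 RPM in AD libraries, where their medians were 4.55 and 5.43 RPM. These means thus rest in part on the highest libraries.

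In traditional-seq the leading fragments were 23 to 35 nt long, against 23 to 42 nt, and came in part from other places.
mt-Nd1 755 to 789 (chrM:3505-3539, plus strand): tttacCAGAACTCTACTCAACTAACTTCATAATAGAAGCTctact
mt-Nd2 36 to 60 (chrM:3949-3973, plus strand): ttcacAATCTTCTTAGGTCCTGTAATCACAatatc
mt-Nd3 129 to 154 (chrM:9587-9612, plus strand): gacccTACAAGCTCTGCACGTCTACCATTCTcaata
mt-Nd4 337 to 361 (chrM:10503-10527, plus strand): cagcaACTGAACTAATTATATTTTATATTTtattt
mt-Nd4l 1 to 23 (chrM:9877-9899, plus strand): ATGCCATCTACCTTCTTCAACCTcacca
mt-Nd5 1497 to 1520 (chrM:13238-13261, plus strand): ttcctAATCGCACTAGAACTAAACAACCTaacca
mt-Nd6 196 to 221 (chrM:13850-13875, minus strand): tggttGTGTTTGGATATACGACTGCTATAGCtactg
Only 4 of these 7 began with A, and 2 of the 6 internal starts followed a T. The mt-Nd1 leader lay inside its PANDORA-seq counterpart, shorter by a few bases at its 5′ end and by 1 base at its 3′ end, and both mt-Nd4l leaders began at the start codon.

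Library depth was 54926347 to 105876141 reads in PANDORA-seq and 9370669 to 17053412 in traditional-seq, of which 26865 to 141596 and 4345 to 22444 were complex I mRNA fragments. The brain label was checked on miRNA hairpins. In traditional-seq the brain hairpins Mir128 and Mir9 stood at 54590 to 261709 and 19991 to 54202 RPM (reads per 1000000 of all reads), Mir218 at 1771 to 16289, Mir124 at 61.2 to 393 and Mir138 at up to 260 RPM. The liver hairpin Mir122 reached 762 RPM, the muscle hairpins Mir1a and Mir133a 7797 and 35.6 RPM, and the erythroid hairpin Mir451a 258 RPM. By their medians, Mir124 (136.7 RPM) and Mir138 (59.6 RPM) lay below Mir1a (424 RPM) and Mir451a (171.8 RPM), and Mir138 also below Mir122 (83.6 RPM), so 2 of the 5 did not bear out the label there. In PANDORA-seq Mir128 and Mir9 stood at 959 to 3775 and 518 to 3716 RPM, against 247, 2.85, 1.515 and 11.8 RPM at most for these 4. There 3 of the 5 brain hairpins had a lower median than Mir122 (75.9 RPM), namely Mir218 at 19.4 to 191.5 RPM (median 44.1), Mir124 at 24.2 to 70.3 RPM (median 37.6) and Mir138 at 1.765 to 13.8 RPM (median 5.355), so these 3 did not bear out the label. The part of other tissues in the results was not tested. By the study's figure captions, which give numbers of mice, the libraries of a group came from separate mice. Whether both protocols used the same mice is not given in the sources used here, and the libraries were treated as independent in the tests between protocols.

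Summed over the 7 genes, these fragments overlapped in level between all 4 groups. PANDORA-seq libraries held 451 to 1056 RPM in WT (median 813) and 489 to 1718 RPM in AD (median 712). Traditional-seq libraries held 344 to 1892 RPM in WT (median 675) and 472 to 1625 RPM in AD (median 746). Libraries of a single group lay further apart than the medians of the groups. As a share of all reads the mean was 0.0835% ± 0.0321 (SD, n = 16) in PANDORA-seq and 0.0813% ± 0.0442 (SD, n = 14) in traditional-seq. Within reads of 20 to 42 nt, the window both protocols hold, it was 0.0867% ± 0.0327 and 0.0876% ± 0.0465. As a share of the reads that matched a transcript it was 0.331% ± 0.111 and 0.172% ± 0.102, so the closeness of the protocols held on the scale of all reads and not on that of matched reads.

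**Figure D1:**
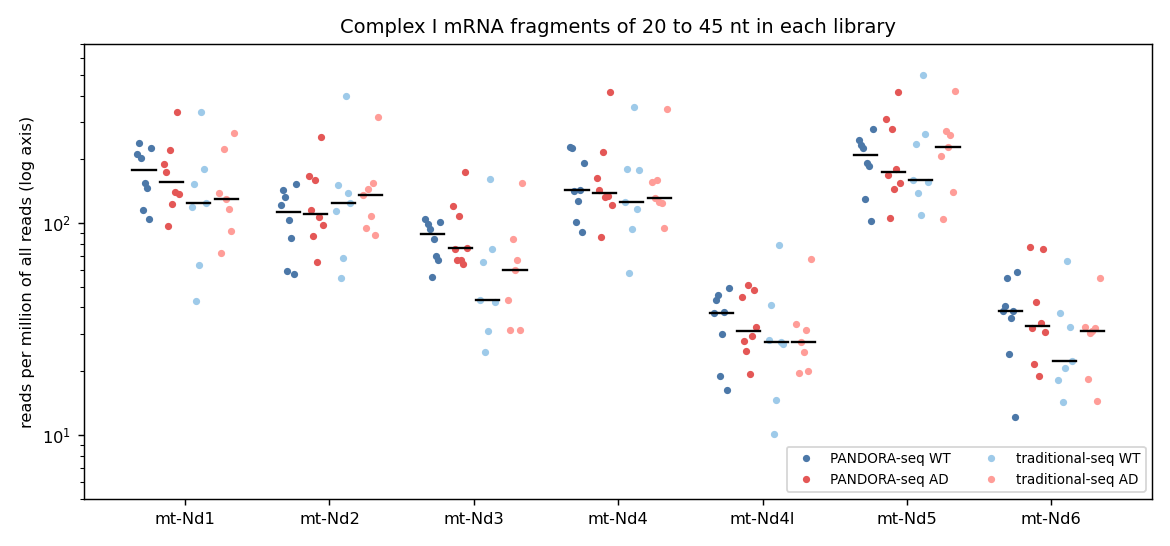
RPM (log axis) for each of the 7 genes, with 1 point per library in 4 groups (8 WT and 8 AD by PANDORA-seq, 7 WT and 7 AD by traditional-seq) and bars at the medians. For mt-Nd5, PANDORA-seq WT libraries sit between 102 and 277 RPM and AD libraries between 106 and 416 RPM, and the 4 groups overlap for every gene.

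To compare genes of different length, levels were divided by transcript length in kb. In PANDORA-seq mt-Nd3 led with 257 ± 85.01 RPM per kb (SD, n = 16), ahead of mt-Nd1 with 184 ± 64.6, and this order held in 16 of 16 libraries. Then came mt-Nd4 with 120.7 ± 58.2, mt-Nd4l with 117 ± 39.0, mt-Nd2 with 115 ± 48.1 and mt-Nd5 with 115 ± 45.7 RPM per kb. The order within these 4 was not stable, since each neighbour was above the next in only 7 to 10 of 16 libraries. mt-Nd6, the only member read from the other strand, was lowest at 76.6 ± 36.1 RPM per kb and stood below mt-Nd5 in 16 of 16 libraries. In traditional-seq the top and bottom were again mt-Nd3 (188 ± 124 RPM per kb, SD, n = 14) and mt-Nd6 (58.6 ± 28.8). There mt-Nd3 exceeded mt-Nd1 in 11 of 14 libraries and mt-Nd4l exceeded mt-Nd6 in 14 of 14. These levels include reads shared with nuclear transcripts, in PANDORA-seq 89.5% for mt-Nd3 and 99.9% for mt-Nd4l against 0% for mt-Nd1. No order without such reads is given.

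The levels of the members varied together from library to library. Across the 21 pairs of members, Pearson's r of log2(RPM + 1) was 0.73 to 0.95 over the 16 PANDORA-seq libraries and 0.77 to 0.98 over the 14 traditional-seq libraries. The points share library depth and composition, so these are descriptions. Among 2496 other genes with a mean of at least 10 RPM, those most like the summed members in PANDORA-seq were mt-Cytb (r = 0.94), mt-Co1 (0.92), Snord104 (0.91), mt-Atp6 (0.90) and mt-Tn (0.90). mt-Cytb, mt-Co1 and mt-Atp6 are mRNAs for subunits of complexes III, IV and V, mt-Tn is a mitochondrial tRNA, and Snord104 is a small nucleolar RNA. For comparison, 95% of these genes had r below 0.46.

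Fragments did not cover the mRNAs evenly. Every position of the 7 transcripts was covered in both protocols, but a few sites stood far above the rest. In mt-Nd1, mean coverage in PANDORA-seq peaked at 52.5 RPM at position 735, against a median of 3.57 RPM over its 957 positions. In mt-Nd5 it peaked at 51.25 RPM at position 272 against a median of 1.54 RPM.

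The sites differed between protocols in some genes and were shared in others. Pearson's r of mean coverage between protocols, across the positions of a gene, was 0.81 for mt-Nd4l, 0.76 for mt-Nd1, 0.75 for mt-Nd6 and 0.61 for mt-Nd3. It was 0.42 for mt-Nd5, 0.28 for mt-Nd4 and 0.18 for mt-Nd2. Within a protocol, WT and AD profiles were close, with r of 0.93 to 0.99 in PANDORA-seq and 0.983 to 0.999 in traditional-seq. Neighbouring positions share reads, so no p is given.

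**Figure D2:**
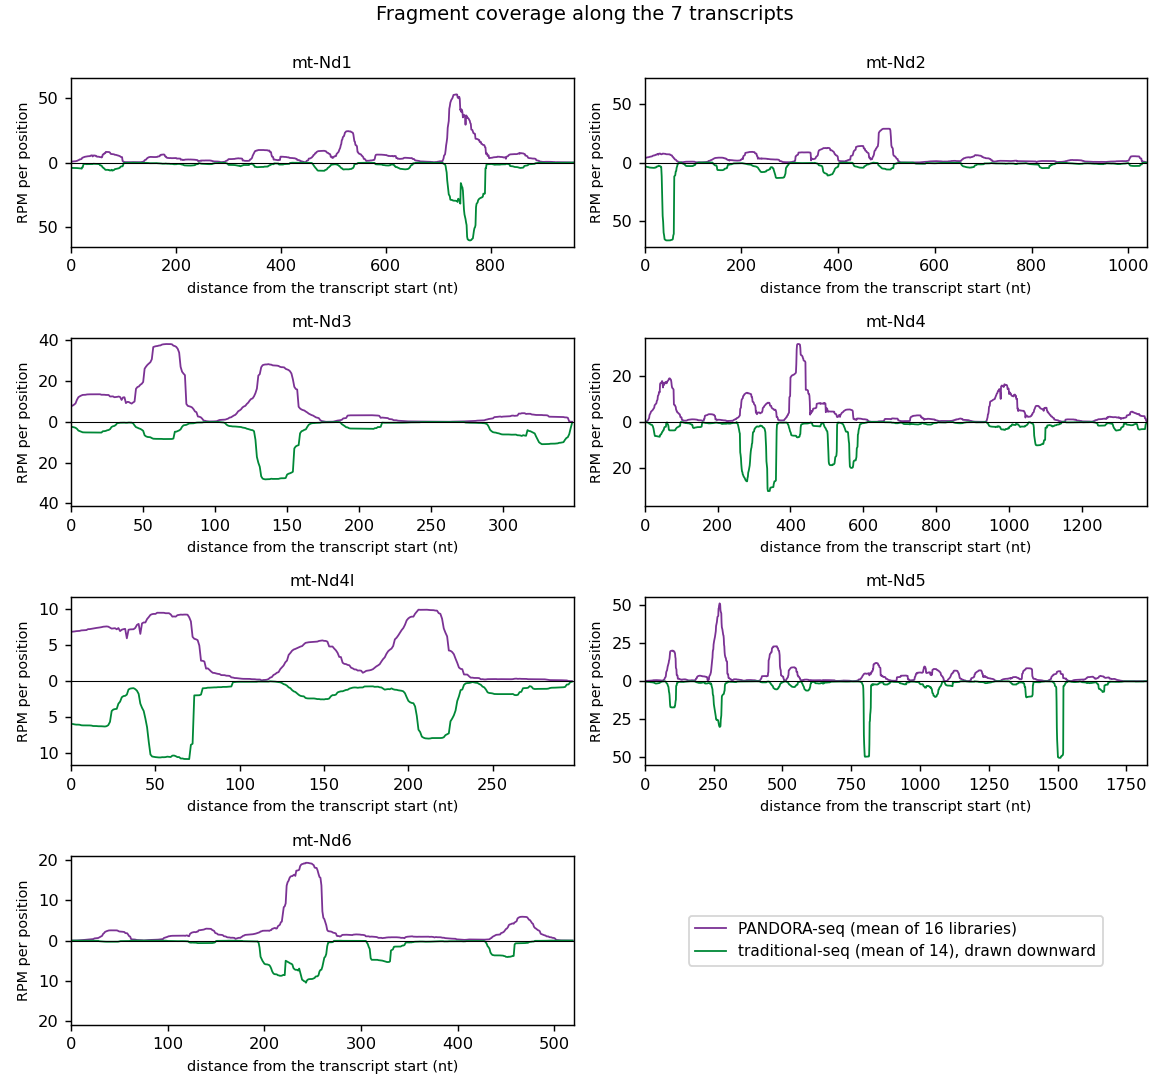
Mean coverage (RPM per position) along each of the 7 transcripts against distance from the transcript start in nt, PANDORA-seq upward (mean of 16 libraries) and traditional-seq downward (mean of 14 libraries). In mt-Nd6 both protocols peak at position 243, while mt-Nd2 peaks at 502 in PANDORA-seq and 45 in traditional-seq and mt-Nd5 at 272 and 1510.

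In traditional-seq the top 3′ end of a gene held a median of 7.25% to 29.5% of its reads. Position 60 of mt-Nd2 was the 3′ end of 8.45% to 47.9% of mt-Nd2 reads per library (median 29.5%, n = 14). Position 1520 of mt-Nd5 was the 3′ end of 9.70% to 28.9% of its reads (median 18.8%), and position 789 of mt-Nd1 of 1.74% to 28.6% (median 9.97%). In PANDORA-seq the top 3′ ends with the highest median share were position 259 of mt-Nd6, with 4.18% to 33.25% of reads (median 18.2%, n = 16), and position 79 of mt-Nd3, with 6.22% to 43.1% (median 13.25%). Those of mt-Nd4l, mt-Nd1 and mt-Nd4 held medians of 6.36%, 5.18% and 2.565%. At mt-Nd2 and mt-Nd5 the strongest PANDORA-seq ends, positions 509 and 299, held medians of 3.66% and 2.575%.

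A tRNA gene directly precedes mt-Nd1, mt-Nd2, mt-Nd3, mt-Nd5 and mt-Nd6 in the annotation, 1 base lies between mt-Tr and mt-Nd4l, and none adjoins mt-Nd4. Reads from the annotated start were frequent in a few members. Reads that began at base 1 made up 19.7% ± 8.505 (SD, n = 16) of mt-Nd4l reads in PANDORA-seq and 19.1% ± 6.61 (SD, n = 14) in traditional-seq. For mt-Nd3 these shares were 9.21% ± 3.60 and 5.30% ± 5.08, and for mt-Nd2 they were 3.275% ± 0.899 and 2.56% ± 0.995. For mt-Nd1 the PANDORA-seq share was 0.357% ± 0.172 and the traditional-seq share 3.55% ± 3.28. It was at or below 0.157% in both protocols for mt-Nd4, mt-Nd5 and mt-Nd6. The annotated start of mt-Nd4 lies inside the mRNA it shares with mt-Nd4l.

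The bases at the ends of the reads differed between protocols on both sides. In PANDORA-seq 46.5% ± 12.45 of internal 5′ ends (SD, n = 16, 28.7% to 75.7%) lay between a pyrimidine (C or T) and an A, in traditional-seq 25.2% ± 1.38 (SD, n = 14, 23.1% to 27.9%). Such pairs make up 19.4% of adjacent bases in the 7 transcripts. T before A held 35.9% ± 13.6 of 5′ ends in PANDORA-seq and 11.8% ± 1.26 in traditional-seq, against 10.8% of the transcripts. C before A held 10.7% ± 2.02 and 13.4% ± 0.789.

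At 3′ ends the order was turned. Ends between C or T and a following A made up 39.0% ± 4.26 of 3′ ends in traditional-seq (SD, n = 14, 33.9% to 48.1%) and 8.39% ± 2.47 in PANDORA-seq (SD, n = 16, 3.72% to 12.7%). With any base before the A the shares were 53.3% ± 3.77 and 11.75% ± 3.23, against 33.3% of the transcripts. The contrast was thus not confined to pyrimidines. In PANDORA-seq 53.5% ± 9.985 of fragments ended just before a T, in traditional-seq 21.98% ± 2.33, with T at 30.3% of transcript positions. The ranges of the protocols did not meet for either pyrimidine and A share.

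Gene by gene, and in mitochondrial mRNAs outside complex I, the means of the protocols stood in the same order at both ends. At 5′ ends the library ranges of the protocols met for mt-Nd1, mt-Nd3, mt-Nd5, mt-Nd6 and the other mitochondrial mRNAs. The 5′ share of pyrimidine before A ran from 33.1% for mt-Nd4l to 51.3% for mt-Nd4 in PANDORA-seq and from 16.5% for mt-Nd4l to 28.2% for mt-Nd2 in traditional-seq. At 3′ ends it ran from 5.66% to 11.5% in PANDORA-seq and from 22.3% for mt-Nd6 to 55.0% for mt-Nd5 in traditional-seq. For the 6 other mitochondrial mRNAs together it was 44.6% ± 12.1 and 26.4% ± 1.86 at 5′ ends and 7.44% ± 2.23 and 41.6% ± 4.97 at 3′ ends. Within PANDORA-seq the 5′ share was 32.6% to 56.2% in WT and 28.7% to 75.7% in AD, so the genotypes overlapped. No test was run on these shares, which sum over the members.

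Fragment length also set the protocols apart. Mean length was 34.4 ± 1.07 nt in PANDORA-seq (SD, n = 16, 32.9 to 36.25 nt) and 26.0 ± 1.16 nt in traditional-seq (SD, n = 14, 23.7 to 27.7 nt). Among reads of 20 to 42 nt, the window both protocols hold, 32.9% ± 3.27 were 20 to 30 nt long in PANDORA-seq and 83.2% ± 7.05 in traditional-seq. Traditional-seq profiles peaked at 24 nt in both genotypes.

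Whether the total of each gene differed between protocols depended on the scale. On the scale of all reads, the 7 genes did not pass a test between protocols. With library size as the scale, edgeR's quasi-likelihood test gave log2 differences (PANDORA-seq over traditional-seq, 20 to 42 nt, n = 30) from -0.48 ± 0.28 (SE) for mt-Nd2 to 0.33 ± 0.28 for mt-Nd3, with adjusted p from 0.0949 to 0.906. None of the 7 passed there, while 97.8% of 14806 genes were called, 94.6% higher and 3.15% lower in PANDORA-seq. With TMM scaling, which takes the typical gene as fixed, all 7 were called lower in PANDORA-seq, from -1.65 ± 0.23 for mt-Nd3 to -2.47 ± 0.27 for mt-Nd2, with adjusted p of 3.19e-06 or less, where 42.4% of genes were called and 12.8% were called lower. The median over all genes was 0.28 with TMM and 2.55 with library size. That of the members was -2.01 and -0.03, so they lay below the median of the genes tested on both scales. Over all 30 libraries 14806 genes passed the filter on low counts, but in the traditional-seq libraries alone 4191 did. Many genes thus entered through the deeper PANDORA-seq libraries. The medians, the shares called and the TMM scale all depend on that filter and are no neutral background.

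Other mitochondrial mRNAs and most mitochondrial tRNAs were also called lower with TMM, while the nuclear partners were too scarce in traditional-seq for such a comparison. With TMM, 6 of 6 other mitochondrial mRNAs (median -2.82) and 20 of 22 mitochondrial tRNAs (median -3.11) were called lower in PANDORA-seq. Among the tRNAs mt-Tp was called higher, at 1.89. Of the rRNAs mt-Rnr2 was called lower, at -1.44, and mt-Rnr1 was not called, at 0.38 (adjusted p = 0.388 by edgeR's quasi-likelihood test). mt-Atp6, a subunit of ATP synthase, had the lowest value among the other mRNAs, -5.16. Of 36 nuclear complex I subunits 26 were called higher and 0 lower (median 0.86), and of 13 assembly factors 6 were called higher and 0 lower (median 0.59), where 29.6% of all genes were called higher. In the traditional-seq libraries alone, only 5 of the 36 subunits passed the filter on low counts, and the factors summed to less than the subunits. Most partners thus entered this fit through the deeper PANDORA-seq libraries, which left little room for a lower call. The counts of 0 lower therefore give no contrast with the mitochondrial RNAs. With library size 36 of 36 nuclear subunits and 13 of 13 factors were called higher, as were most genes, and 4 of 6 other mitochondrial mRNAs were called lower. On that scale 12 of 22 tRNAs were called lower and 5 higher, and 2 of 2 rRNAs were called higher.

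The genotypes were then compared within each protocol, the comparison for which AD and WT mice were taken. None of the 7 genes was called in PANDORA-seq by edgeR's quasi-likelihood test at an adjusted p under 0.05, with 8 AD against 8 WT libraries. Their log2 fold changes (AD over WT, TMM) were 0.20 ± 0.35 (SE) for mt-Nd1, 0.47 ± 0.40 for mt-Nd2, 0.38 ± 0.34 for mt-Nd3, 0.36 ± 0.34 for mt-Nd4, 0.18 ± 0.40 for mt-Nd4l, 0.28 ± 0.38 for mt-Nd5 and 0.25 ± 0.46 for mt-Nd6. Adjusted p ran from 0.640 to 0.869, and 0 of 7 had an unadjusted p under 0.05. Over all 18875 genes tested 7 were called, or 0.0371%, and the median log2 fold change was 0.03, against 0.28 for the members. With library size as the scale the median over all genes moved to -0.36 and that of the members to 0.14. There mt-Nd4l stood at -0.01. The median RPM was lower in AD than in WT for all 7 genes, as for mt-Nd5 (173.8 in AD and 210.1 in WT). The sign was thus not settled for any of the 7.

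In traditional-seq the same comparison gave log2 fold changes of 0.12 to 0.19 with SE of 0.22 to 0.32 for the 7 genes, all with adjusted p = 0.9999 by edgeR's quasi-likelihood test. No gene of 4191 was called (0%), 102 had an unadjusted p under 0.05, and a likelihood ratio test and DESeq2 called 2 genes each, with 0 of the 7 members among them. The interaction of genotype with protocol over 20 to 42 nt gave 0.06 to 0.38 for the members (SE 0.45 to 0.54) with adjusted p of at least 0.960, and 0 of 15845 genes passed (0%) where 1039 had an unadjusted p under 0.05 and a likelihood ratio test and library size called 1 each. On data simulated at these spreads the PANDORA-seq fit called 39 of 91 genes changed 2-fold and 83 of 99 changed 4-fold. The simulation held more changed genes than the data had calls, which makes the adjustment of p less strict. These rates may thus be too high for the data. The changed genes were drawn at random from all genes that passed the filter, so the rates are not for genes at the members' counts and spread. How often a change in a member would be missed was not measured, and a change of 2-fold or more could have been missed.

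The other parts of the complex showed no called difference between genotypes either when reads of 20 to 45 nt were counted. In PANDORA-seq, 0 of 36 nuclear subunits (median -0.20, 33 of them negative), 0 of 13 assembly factors (median -0.12) and 0 of 6 other mitochondrial mRNAs (median 0.13) were called. The smallest adjusted p among these was 0.462. The 2 mitochondrial rRNAs had 0.31 and 1.12, and the 22 mitochondrial tRNAs a median of 0.15, again with no call. In reads of 43 to 45 nt alone, with TMM, 1 of 36 nuclear subunits was called higher in AD (Ndufa13, 1.16) and 2 lower (Ndufb6, -0.86, and Ndufc2, -0.87). There 1 of 8 assembly factors tested was called higher (Acad9, 1.0) and 2 of 19 tRNAs lower (mt-Th, -2.62, and mt-Tk, -1.83), where 9.92% of all genes were called. With library size as the scale, where 92% of genes were called lower in this window, 36 of 36 nuclear subunits, 8 of 8 factors and 18 of 19 tRNAs were called lower. Ndufa13 and Acad9 turned to -1.03 and -1.11, so these higher calls held with TMM and not with library size.

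The genotypes stood apart in the longest fragments of PANDORA-seq. Reads of 43 to 45 nt made up 13.4% to 21.1% of complex I mRNA fragments in the 8 WT libraries (median 16.55%) and 1.59% to 11.1% in the 8 AD libraries (median 4.77%), so the groups did not overlap. The same window held 11.8% to 22.4% of all reads of 20 to 45 nt in WT (median 15.65%) and 2.20% to 11.3% in AD (median 4.44%). The share of all reads thus moved with that of the members, and its part in the results on the members was not tested. In other mitochondrial mRNAs the shares were 17.4% ± 2.56 in WT and 4.965% ± 3.61 in AD (SD, n = 8).

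Gene by gene, the mean 43 to 45 nt share was 23.4% ± 4.275 in WT and 9.08% ± 4.16 in AD for mt-Nd4 (SD, n = 8), the gene with the highest share, and 16.05% ± 2.18 and 4.70% ± 3.44 for mt-Nd1. For mt-Nd2 it was 15.1% ± 1.26 and 4.11% ± 3.25, for mt-Nd5 16.8% ± 2.14 and 5.04% ± 3.335. For mt-Nd6 it was 14.1% ± 2.42 and 2.29% ± 2.26. WT and AD libraries did not overlap for 5 of the 7 genes, the exceptions being mt-Nd3 and mt-Nd4l. Among the 952 genes with at least 500 reads in every PANDORA-seq library, which include the 7, this held for 60.3%, and among 13015 genes with at least 10 reads in each for 34.1%. The ratio of mean shares, AD over WT, was 0.162 for mt-Nd6 and 0.271 to 0.402 for the other 6, and the median over the 13015 genes was 0.363.

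**Figure D3:**
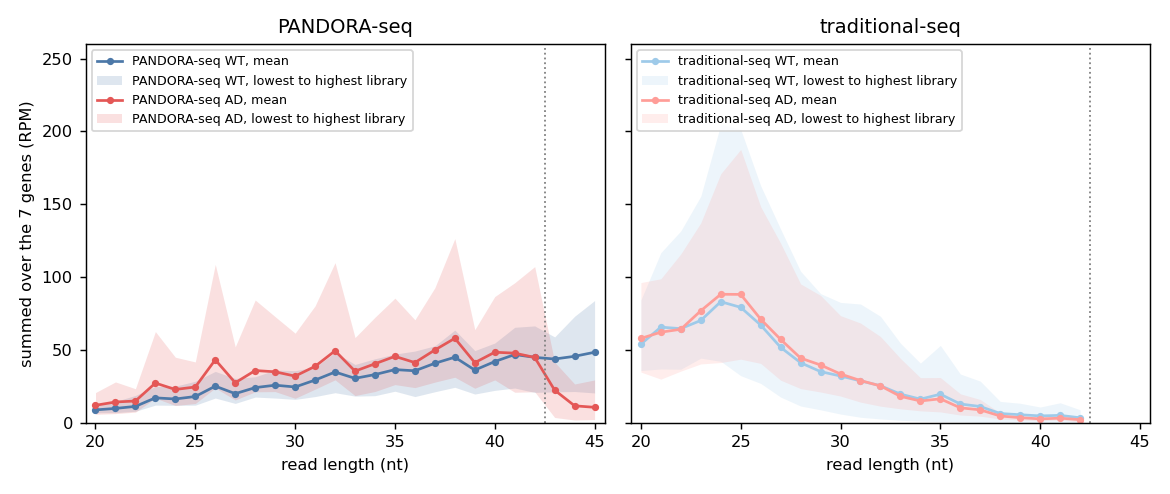
Mean RPM of the 7 genes summed, at each read length in nt, for WT and AD libraries by PANDORA-seq (left, n = 8 each) and traditional-seq (right, n = 7 each, up to 42 nt), with bands from the lowest to the highest library and a dotted line between 42 and 43 nt. PANDORA-seq WT libraries average 43.8, 45.6 and 48.4 RPM at 43, 44 and 45 nt and AD libraries 22.4, 11.7 and 10.6 RPM, and traditional-seq peaks at 24 nt.

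Tested apart, the windows gave different answers, and the longer one again depended on the scale. For 20 to 42 nt with library size as the scale, log2 fold changes of the 7 genes were 0.13 to 0.48 and none was called by edgeR's quasi-likelihood test (smallest adjusted p 0.864), where 0.0164% of 18302 genes were. For 43 to 45 nt with library size they were -1.26 to -2.65, and 7 of 7 were called lower in AD, with adjusted p from 5.51e-05 for mt-Nd6 to 0.0168 for mt-Nd4. In that window 92% of 10591 genes were called lower, with a median of -1.88 against -1.69 for the members, so the members' count was at the background. With TMM, which removes the shift common to the window, 0 of 7 were called, from 0.65 ± 0.44 for mt-Nd4 to -1.23 ± 0.54 for mt-Nd6 (adjusted p = 0.141), where 9.92% of genes were called and 5.21% were called lower.

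**Figure D4:**
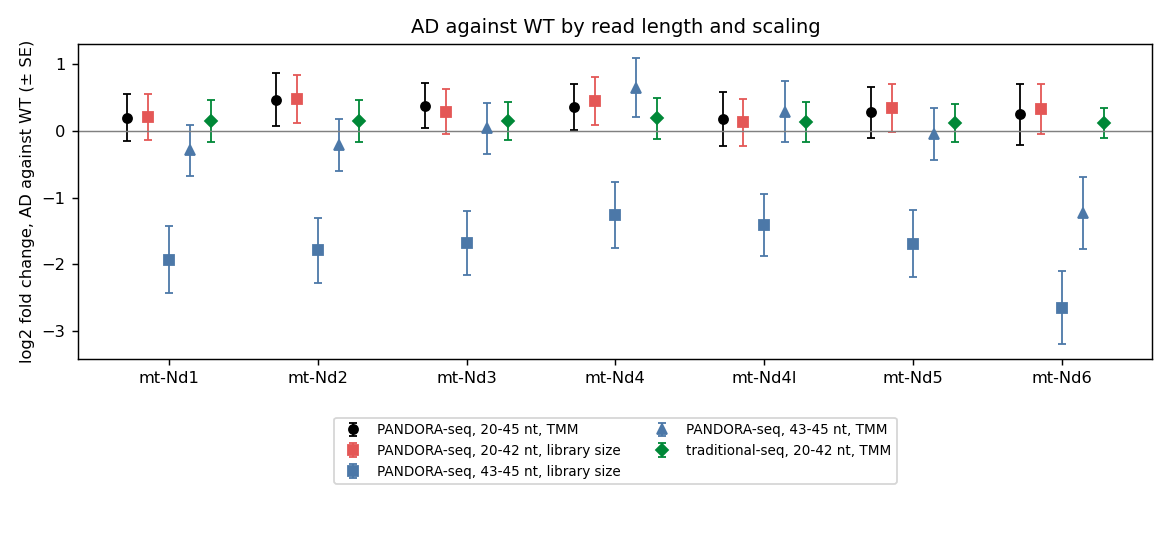
Log2 fold change of AD against WT (± SE) for each of the 7 genes under 5 combinations of protocol, read length and scale (PANDORA-seq 8 against 8 libraries, traditional-seq 7 against 7). The only points far below 0 for every gene are those of 43 to 45 nt reads with library size as the scale, from -1.26 to -2.65.

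At the level of single sequences 975 of the 56040 complex I sequences in PANDORA-seq passed the filter on low counts and were tested among 77675 sequences of all genes. With an adjusted p under 0.05 (edgeR's quasi-likelihood test) and a change of over 2-fold, 19 were called, 14 lower and 5 higher in AD, where 2.8% of all sequences tested were called. All 14 that fell were 43 to 45 nt long, of 70 tested at these lengths, and the background there was 25.9% lower. All 5 that rose were 20 to 42 nt, of 905 tested (0.552%), where 0.0832% of all sequences were called higher and 0.0746% lower. The 14 came from mt-Nd5 (6), mt-Nd1 (3), mt-Nd4 (3), mt-Nd3 (1) and mt-Nd4l (1), and none from mt-Nd2 or mt-Nd6. At all lengths, 249, 243, 156, 120 and 38 sequences of the first 5 genes were tested. For mt-Nd2 and mt-Nd6 these numbers were 140 and 29, so the counts are not rates per gene. When only sequences of 20 to 42 nt were fitted, 0 of 860 members and 2 of 66530 sequences were called, while 15.3% of these members and 6.14% of these sequences had an unadjusted p under 0.05. With library size as the scale 17 members were called lower (1.74%) and 0 higher, where 2.67% of all sequences were called lower and 0.00772% higher. With a likelihood ratio test 23 were called lower (2.36%) and 25 higher (2.56%), where 3.92% of all sequences were called lower and 0.489% higher, so the count of rises depended on the settings. Without WT replicate 4, 5 or 6 or AD replicate 7 no member was called higher. Leaving out WT replicate 6 gave 12 called members, 1.11% of those tested against 2.19% of all sequences. Leaving out AD replicate 1, 5, 6 or 8 gave 55, 59, 55 or 32, or 5.25%, 5.32%, 5.02% or 3% of members against 3.98%, 5.69%, 5.19% or 3.47% of all sequences. In traditional-seq 0 of 78 members tested and 0 of 4837 sequences were called (0%) by edgeR's quasi-likelihood test, a likelihood ratio test or DESeq2, with 23 sequences at an unadjusted p under 0.05 in the first.

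The sequence with the smallest adjusted p was a 45 nt fragment of mt-Nd5, positions 450 to 494 (chrM:12191-12235). It begins at the same base as the leading 41 nt fragment of mt-Nd5 given above and goes 4 bases further, with the fragment in capitals and the 5 bases on either side in lower case.
mt-Nd5 450 to 494: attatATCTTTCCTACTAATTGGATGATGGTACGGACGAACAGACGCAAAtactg
The 45 nt form stood at 1.501 to 9.03 RPM in WT (median 2.22) and 0.0165 to 0.656 RPM in AD (median 0.176), with no overlap. Its log2 fold change was -3.72 ± 0.63 (SE, adjusted p = 0.000396 by edgeR's quasi-likelihood test), where the median over the 7887 sequences of 43 to 45 nt from other genes was -1.48 and that over the 70 of complex I was -0.97. The 43 and 44 nt forms of the same start, named after their values were seen, were called as well, at -3.09 ± 0.61 and -3.20 ± 0.76. The 41 nt form was not called and overlapped, at 0.609 to 10.2 RPM in WT (median 3.66) and 0.510 to 6.23 RPM in AD (median 2.84). At 42 nt the medians were 0.335 and 0.202 RPM. All reads that began at base 450 summed to 3.67 to 21.6 RPM in WT (median 8.01) and 0.9285 to 10.25 RPM in AD (median 4.31), so these sums overlapped. So 3 of the 6 mt-Nd5 sequences that fell were lengths of 1 start and share their source.

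The called rise with the smallest adjusted p was the leading 26 nt fragment of mt-Nd2, positions 484 to 509. It stood at 0.277 to 4.96 RPM in WT (median 1.11) and 1.40 to 32.3 RPM in AD (median 4.55), so the groups overlapped. Its log2 fold change was 2.63 ± 0.69 (SE, adjusted p = 0.0262 by edgeR's quasi-likelihood test). Without AD replicate 7 the log2 fold change was 1.92 and the call was lost, as it was without WT replicate 4, 5, 6 or 7 (2.32 to 2.50), with library size (2.30) and with 20 to 42 nt only (2.53). All reads that began at base 484 of mt-Nd2 summed to 0.906 to 9.38 RPM in WT (median 3.25) and 3.325 to 47.95 RPM in AD (median 8.46).

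The leading fragment of mt-Nd4, 42 nt from position 400, was not called. Its level was 0.595 to 8.51 RPM in WT (median 1.05) and 0.346 to 47.1 RPM in AD (median 5.43). Of the other 4 rises, named after their values were seen, 3 were in mt-Nd5 (831 to 856, 1201 to 1225 and 1234 to 1270) and 1 was in mt-Nd1 (522 to 541), with log2 fold changes of 2.12 to 2.46. The groups overlapped in all 4. In WT all but 831 to 856 were near the floor. Medians were 0.0213 RPM for 1234 to 1270 (32 WT reads), 0.0695 RPM for 1201 to 1225 (53) and 0.14 RPM for 522 to 541 (90). The first 2 of these may have passed the filter on low counts through AD only. The sequence of 1201 to 1225 also occurs in a nuclear transcript.

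**Figure D5:**
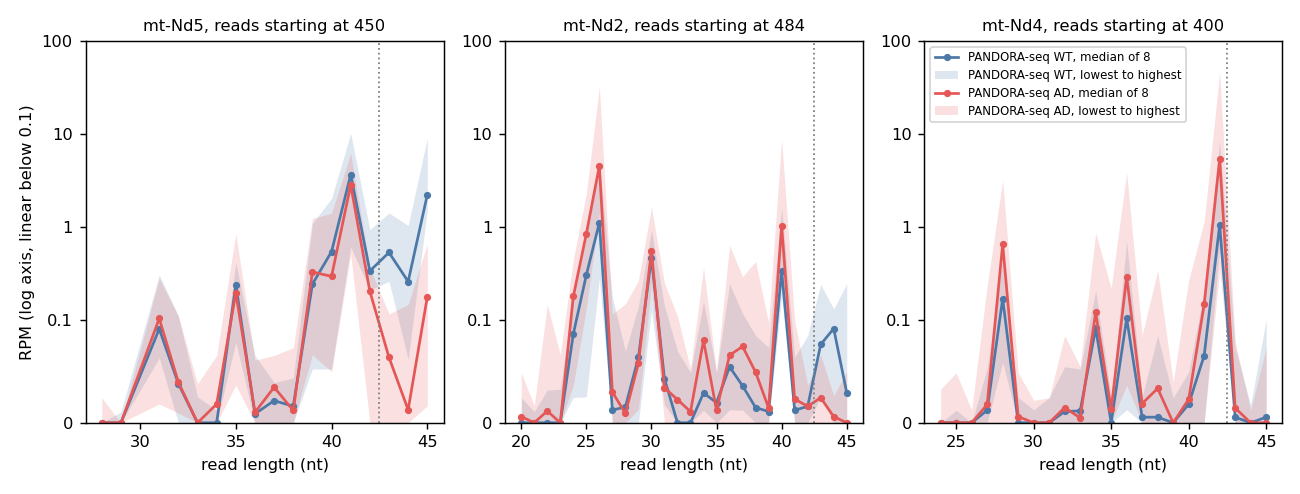
RPM (log axis, linear below 0.1) against read length in nt for reads that start at base 450 of mt-Nd5, 484 of mt-Nd2 and 400 of mt-Nd4, as medians of 8 WT and 8 AD PANDORA-seq libraries with bands from lowest to highest and a dotted line between 42 and 43 nt. WT and AD of mt-Nd5 run together at 41 nt (3.66 and 2.84 RPM) and part at 45 nt (2.22 and 0.176 RPM), while mt-Nd2 at 26 nt has medians of 1.11 and 4.55 RPM.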

How the data were processed

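Small RNA of 15 to 50 nt from mouse cortex was sequenced in 30 libraries. The deposited files hold read counts per distinct clean sequence, made by the authors after adapter removal, and the submitters' processing notes name build mm39. How reads were trimmed is not given in the sources used here, and traditional-seq files hold no read over 42 nt, so protocols were compared over 20 to 42 nt.

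Sequences of 20 to 45 nt were matched without mismatch, in sense, to GENCODE M21 transcripts (GRCm38), and counts were summed per gene. A matching check found 2000 of 2000 exact fragments and 0 of 2000 with 1 substitution. Levels are reads per 1000000 of all reads (RPM). Genes, and distinct sequences, were fitted with edgeR 4.0.16 in R 4.3.3 (quasi-likelihood test, TMM, filterByExpr, Benjamini-Hochberg adjustment over all features tested), with DESeq2 1.42.0 as an alternative. Calls need an adjusted p under 0.05, and for sequences a change over 2-fold. The fit was tested on simulated data.

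The members, gene lists and tests were chosen with earlier results of these data known. Sequences named are, for each gene, the one with the highest mean RPM in each protocol and, over the genes, the called one with the smallest adjusted p in each direction. End positions named are those with the highest mean RPM. Like genes are the 5 with the highest Pearson's r with the members' total, on log2(RPM + 1), among genes with a mean of at least 10 RPM. Library depth was 54926347 to 105876141 reads in PANDORA-seq and 9370669 to 17053412 in traditional-seq, so rare sequences were measured more precisely in the former, and counting error is the only error that depth covers.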

Additional observations from a re-analysis of the deposited data

Results flagged for a closer look

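In traditional-seq, WT replicate 5 lay far above the other WT libraries, with 398.2 RPM for mt-Nd2, 161.6 for mt-Nd3, 353.5 for mt-Nd4, 500.5 for mt-Nd5 and 1892.0 for all 7 genes. AD replicate 7 of the same protocol lay far above the other AD libraries, with 316.0 RPM for mt-Nd2, 154.7 for mt-Nd3, 345.6 for mt-Nd4, 67.86 for mt-Nd4l and 1625.4 for all 7 genes. In PANDORA-seq, AD replicate 7 lay far above the other AD libraries for mt-Nd4, with 416.0 RPM. In these the gap to the nearest library, divided by the range of the group, exceeded the 95% critical value of Dixon's test. This held for 11 of 48 tested, where chance gives about 1 in 20 for normally distributed values. The values were not transformed, and all 11 flags were at the highest library of a group, so that rate may not hold here. The 7 genes vary together, so these values are not independent of each other.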

How the results depend on the processing

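In PANDORA-seq none of the members tested was called between genotypes under the alternatives run except 43 to 45 nt with library size (7 called). The 7 were tested in each, except that mt-Nd4l was not tested when sequences shared with nuclear transcripts were left out. The other 6 then had log2 fold changes of 0.20 to 0.48 (mt-Nd3 0.28, mt-Nd4 0.20). The alternatives of 43 to 45 nt with library size, 20 to 42 nt with library size and the block on an unchanged filter were chosen after seeing the data. Of the single genes, the log2 fold change turned negative with 43 to 45 nt for mt-Nd1 (-0.29), mt-Nd2 (-0.21), mt-Nd5 (-0.05) and mt-Nd6 (-1.23), and with 43 to 45 nt and library size for mt-Nd1 (-1.93), mt-Nd2 (-1.79), mt-Nd3 (-1.68), mt-Nd4 (-1.26), mt-Nd4l (-1.41), mt-Nd5 (-1.69) and mt-Nd6 (-2.65). With library size the PANDORA-seq value of mt-Nd4l was -0.01, and the traditional-seq values of mt-Nd2 and mt-Nd4l were -0.01 and -0.02. Leaving out each traditional-seq library gave -0.01 to 0.25 for mt-Nd3, lowest without AD replicate 7. Between protocols, library size left 0 of the 7 members called, with mt-Nd1 at 0.10, mt-Nd3 at 0.33 and mt-Nd6 at 0.25. The 19 called PANDORA-seq sequences (1.95% of members tested, 2.8% of all sequences) became 48 with a likelihood ratio test (4.92% and 4.41%) and 48 with DESeq2 (4.92% and 4.36%), with all 19 among them in both. They became 234 with a minimum of 10 reads over all libraries (1.5% and 1.63%, 15 of the 19) and 0 with 20 to 42 nt only. Leaving out each library gave 12 to 59 (1.11% to 5.32% of members), with 12 without WT replicate 6, and 55, 59, 55 and 32 without AD replicates 1, 5, 6 and 8, and the count over all sequences moved as well, from 1872 to 4739 (in shares, from 2.19% to 5.69%). The call of mt-Nd2 484 to 509 was lost with library size (2.30), with 20 to 42 nt only (2.53) and without WT replicate 4, 5, 6 or 7 or AD replicate 7 (1.92 to 2.84 over all libraries left out). As a share of matched reads the 7 genes held 0.331% in PANDORA-seq and 0.172% in traditional-seq, in place of 0.0835% and 0.0813% of all reads. The causes were not tested. Whether same-numbered libraries shared more than a number was not settled. Their deviations correlated at -0.291 to 0.41 in PANDORA-seq and -0.118 to 0.366 in traditional-seq, with no other pairs to set these against. With the replicate block, 0 of 7 genes were called in either protocol, and 114 (16 of the 19, 3.71% of members and 5.48% of all sequences) and 0 sequences, but there the filter on low counts let more sequences in (3071 members in place of 975 in PANDORA-seq). On the sequences tested without the block, the block gave 22 (13 of the 19, 2.26% of members and 3.31% of all sequences, 22 lower and 0 higher) and 0, and mt-Nd2 484 to 509 had 2.02 and was not called. Copies in the nuclear genome outside transcripts were not searched. At these depths 78 member sequences could be tested in traditional-seq and 975 in PANDORA-seq.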

Other observations

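Some fragments ended in A bases that the transcript does not hold. Counted were reads that ended within the last 5 nt of a transcript and went on with at least 3 such A bases. For mt-Nd4 they stood at 0.346 to 3.84 RPM in PANDORA-seq (median 1.74), with a median tail of 9 A and up to 28, and at 0.0966 to 4.805 RPM in traditional-seq (median 1.40), with a median of 4 A and up to 6. The reads differ in length between the protocols, and the part of this in the tail lengths was not tested. For mt-Nd3 they stood at 0 to 0.597 RPM (median 0.337) and 0.462 to 15.2 RPM (median 2.76). For mt-Nd2 the medians were 0.106 and 0 RPM, and for mt-Nd1 0.0520 and 0 RPM. None was found for mt-Nd5 or mt-Nd6, but only 8 and 25 untailed PANDORA-seq reads lay at these annotated ends. Whether these mRNAs carry tails elsewhere was not tested. No value is given for mt-Nd4l, whose annotated end lies inside the mRNA it shares with mt-Nd4.

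Reads antisense to the members were also present and were not counted in any value above. They made up 16.1% ± 2.72 of sense and antisense reads in PANDORA-seq (SD, n = 16) and 14.45% ± 2.10 in traditional-seq (SD, n = 14). The share differed widely between genes. In PANDORA-seq it was 2.73% ± 0.595 for mt-Nd1 and 33.4% ± 4.91 for mt-Nd5. For mt-Nd6, whose opposite strand carries the long precursor of the other members, PANDORA-seq gave 31.1% ± 5.88 and traditional-seq 56.0% ± 7.61.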
